A study of Homo sapiens with 2 samples.

Results

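The genes described here form the actin cytoskeleton, its anchorage at focal adhesions, and the transcription programmes of SRF and YAP that read the state of actin. The list was chosen by gene name for known roles, with earlier results of these data known. It held 46 genes, and all 46 were among the 11943 protein-coding genes of the deposited tables. They comprised 3 actin isoforms, 10 contractile and tropomyosin genes, 3 genes of actin monomer binding and turnover, 8 subunits of the Arp2/3 complex, 11 crosslinkers and focal adhesion proteins, 4 transcription regulators and 7 YAP target genes. RNA was sequenced from wild-type HMC3 cells, an established human microglial line, exposed to recombinant human periostin (rhPOSTN) or to PBS, its vehicle, with 3 numbered libraries in each group. Every result below compares these groups at a single dose and duration. Nothing in the labels or the methods says that the libraries of a group were grown separately, so that their spread, and every p-value resting on it, may be technical.

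Periostin is a secreted matricellular protein that is bound by integrins, the receptors that couple the extracellular matrix to actin through focal adhesions. Actin monomers hold back the MRTF coactivators, and when actin polymerises these are freed to act with SRF on CArG boxes in cytoskeletal genes. YAP1 and TAZ (encoded by WWTR1) are released into the nucleus in spread, tensed cells, where they act through TEAD factors on genes such as CYR61 and CTGF. The comparison here asks whether exposure to a ligand of integrins was accompanied by a change in the transcripts of this machinery.

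Values were deposited as FPKM (fragments counted per kilobase of transcript, relative to the mapped total), a unit that takes account of length, so that levels may be compared between genes. Library sums of FPKM lay between 184122 and 195494. PBS library 3 stood apart from the other 5, with correlations over tested genes of 0.913 to 0.940, against 0.973 to 0.983 for the other 10 pairs. Mitochondrially encoded genes held 4.95%, 5.56% and 7.77% of the summed FPKM in rhPOSTN libraries 1 to 3, and 7.02%, 7.36% and 1.48% in PBS libraries 1 to 3. PBS library 3 was the highest or lowest of the 6 libraries for 31 of the 46 cytoskeletal genes (67.4%) and for 74.4% of all tested genes. It was the highest for 16 of the 46, against 30.1% of all tested genes, and the lowest for 15, against 44.4%. Differences that its removal moved far are therefore also given without it. Of 14 microglial and myeloid markers, 3 were found in the tables (CD68, TREM2 and CD14), and their summed FPKM was 15.6 to 19.9 in rhPOSTN libraries and 10.3 to 20.6 in PBS libraries. The other 11 were looked up and were not listed there, so the cell identity was checked only in part. Of 12 mesenchymal and pericyte markers 7 were found, with sums of 355 to 407 in rhPOSTN libraries and of 365, 373 and 583 in PBS libraries 1 to 3. COL1A1 made up the excess of the sum in PBS library 3, which was the highest of the 6 libraries for 4 of these 7 markers and the lowest for 1.

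SRF acts through CArG boxes and TEAD factors through the sequence GGAATG, and the following promoter windows are shown because they hold those letters. Promoter sequences came from RefSeq (GRCh38.p14) and covered 39 of the 46 genes. In the 250 bases before the start, a CArG box (searched on both strands) was found in 9 of 65 promoters of these genes (13.8%), against 1.16% of all 35116 promoters. GGAATG, the TEAD motif, or its reverse complement CATTCC was found in 13 of 65 (20%), against 11.9% of all promoters, and no match of the 2 motifs overlapped. Counted by gene, a CArG box was found for 7 of the 39 genes, against 1.44% of all gene symbols. The TEAD motif was found for 13 of the 39, against 14.3%. The list was chosen to include SRF and YAP targets, so these shares are not a test of it. A match is a description of the sequence and not evidence of binding. Each window below reads 5′ to 3′ on the strand of the gene, with the motif in capitals. ACTG1 (chr17:81512874-81512903, minus strand), CNN2 (chr19:1026509-1026538, plus strand), TPM4 (chr19:16067355-16067384, plus strand) and FLNA (chrX:154374709-154374738, minus strand) each show a CArG box, and SRF itself (chr6:43171239-43171268, plus strand) shows a pair of them, whose first bases lie at -30 and -10 relative to its start. CTGF (chr6:131951455-131951484, minus strand) shows a pair of TEAD motifs at -104 and -95, and ANKRD1 (chr10:90921198-90921227, minus strand) shows the motif at -128.
ACTG1: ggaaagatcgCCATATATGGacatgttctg
CNN2: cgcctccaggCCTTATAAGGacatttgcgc
TPM4: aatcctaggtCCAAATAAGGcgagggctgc
FLNA: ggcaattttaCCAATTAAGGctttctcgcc
SRF: CCATATAAGGagcggcctcgCCATAAAAGG
CTGF: ggtggggaGGAATGcgaGGAATGtccctgt
ANKRD1: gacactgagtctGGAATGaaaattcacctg

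Exposure to rhPOSTN was not accompanied by a detected change in any of the 46 genes when all 6 libraries were used. With limma on log2(FPKM + 1), 0 of 46 passed an adjusted p of 0.05, where 0.0182% of all tested genes passed, and their adjusted p-values were 0.951 to 1.00. At an unadjusted p under 0.05, 2 of 46 differed (4.35%), against 3.21% of all tested genes. These were CAP1 and TPM4, both lower in rhPOSTN libraries, a direction in which 0.765% of all tested genes passed, and 0 of 46 were higher, against 2.45%. The log2 difference, rhPOSTN minus PBS, was above 0 for 21 genes and below 0 for 25 (54.3%), while 63.5% of all tested genes lay above 0 and 36.5% below. Its median over the 46 was -0.03, against 0.06 over all tested genes, and single genes ranged from -0.69 for CAP1 to 0.51 for YAP1. When the libraries were scaled by the median of ratios instead, 7 of the 46 signs turned, and the medians were -0.11 over the 46 and -0.0089 over all tested genes. At an unadjusted p under 0.05, CAP1, ACTR2 and TPM4 were then lower and 0 of 46 higher, while 150 of all tested genes were higher (1.37%) and 166 lower (1.51%). The ratio of group means was within 15% of 1 for 35 of the 46 genes. In RNA of a whole culture, fewer cells of a type and less RNA per cell cannot be told apart.

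Without PBS library 3, CAP1 alone among these genes passed the adjusted threshold in limma, in the lower direction, where 0.0365% of all tested genes passed, and 0 of 46 passed in the higher direction, where 0.0638% did. CAP1, ACTR2, TAGLN2 and TPM4 were then lower at an unadjusted p under 0.05 (8.70%, against 2.48% of all tested genes), and again 0 were higher, against 7.07%. In either direction 9.55% of all tested genes passed. The sign of the difference turned for 14 of the 46 genes when that library was left out, and again 21 lay above 0 and 25 below, against 58.9% and 41.1% of all tested genes. The groups did not overlap for 8 genes (17.4%), against 11.7% of all tested genes. Of these, ACTA2, PTK2 and WWTR1 were higher in every rhPOSTN library (6.52%, against 8.94%), and TPM3, TPM4, CAP1, ACTR3 and CYR61 were lower in every rhPOSTN library (10.9%, against 2.76%).

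**Figure D1:**
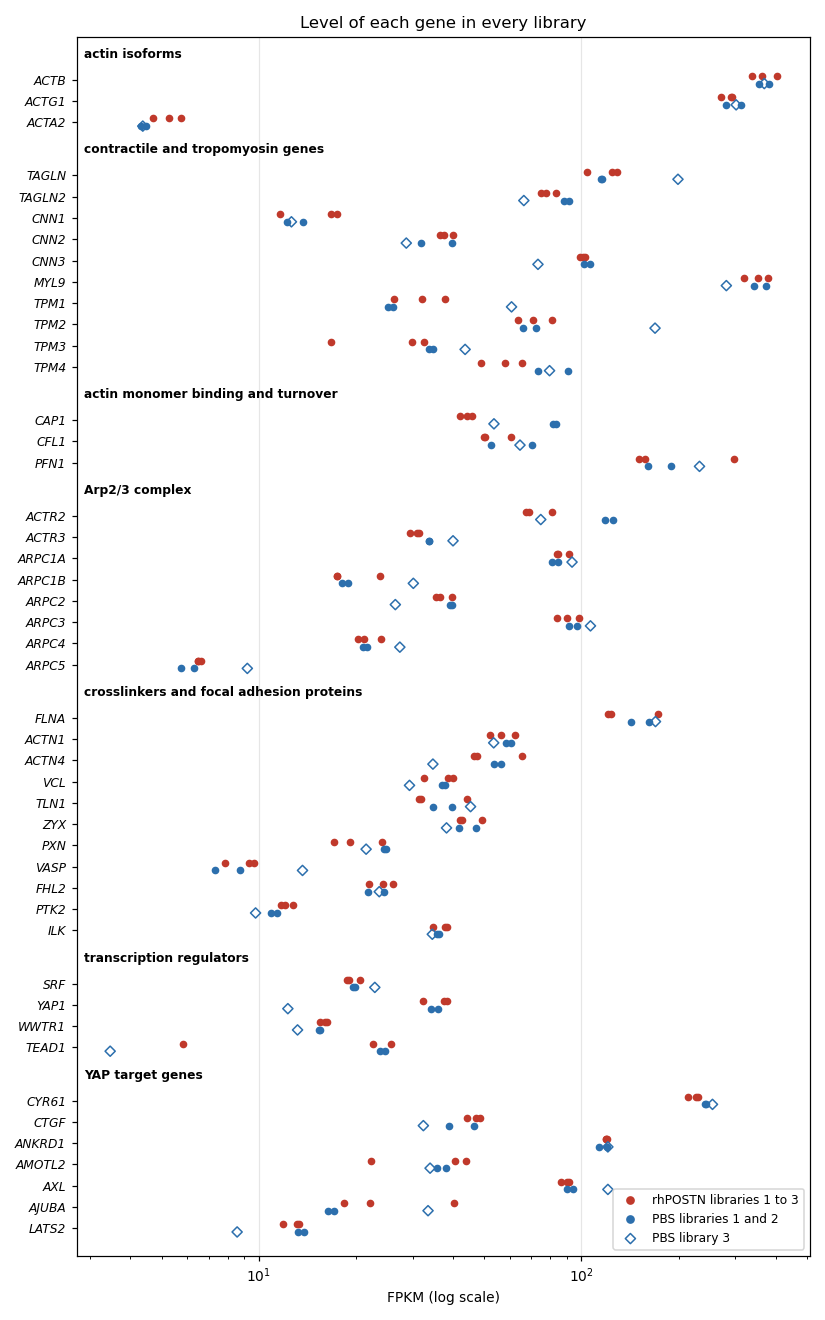
FPKM (log axis) of each of the 46 genes in every library, grouped by role, with red points for rhPOSTN libraries 1 to 3, blue points for PBS libraries 1 and 2 and an open diamond for PBS library 3. Most genes differed far more from each other than between groups, CAP1 and TPM4 had no red point within the range of the blue ones, and the diamond often stood apart, as for TAGLN, TPM1, TPM2 and YAP1.

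**Figure D2:**
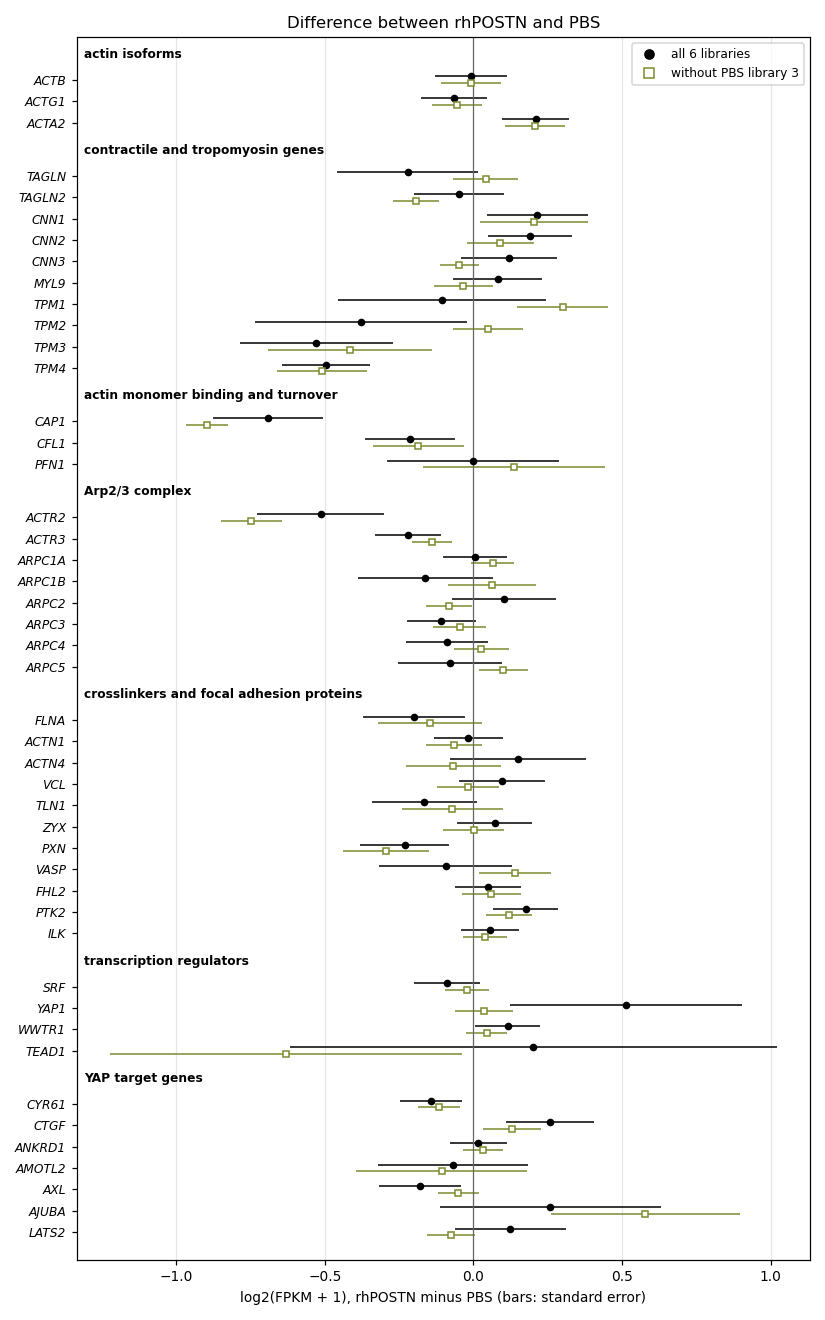
Difference of log2(FPKM + 1), rhPOSTN minus PBS, for each gene with its standard error, from all 6 libraries (black points) and without PBS library 3 (open squares). CAP1 lay farthest below 0 in both, at -0.69 and -0.90, while YAP1 was at 0.51 with all libraries and at 0.04 without PBS library 3.

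The cytoplasmic actins ACTB and ACTG1, which build the filaments of every non-muscle cell, were among the most abundant transcripts of the list. ACTB had 337, 403 and 363 FPKM in rhPOSTN libraries 1 to 3, against 382, 356 and 369 FPKM in PBS libraries 1 to 3. ACTG1 had 294, 290.4 and 271 FPKM in rhPOSTN libraries, against 280.4, 312 and 302 FPKM in PBS libraries. The groups overlapped for both genes, and the log2 differences were -0.01 ± 0.12 for ACTB and -0.06 ± 0.11 for ACTG1 (SE; limma adjusted p = 0.991 and 0.951).

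ACTA2 (chr10:90694831-90751096, minus strand, GRCh37), smooth muscle actin and a target of SRF, was present at a far lower level. Its FPKM was 4.70, 5.28 and 5.75 in rhPOSTN libraries and 4.32, 4.47 and 4.37 in PBS libraries, so that every rhPOSTN library lay above every PBS library. Group means were 5.24 ± 0.526 and 4.38 ± 0.0745 FPKM in rhPOSTN and PBS libraries (SD, n = 3 each), a log2 difference of 0.21 ± 0.11 that missed the threshold (limma adjusted p = 0.951, and 0.565 without PBS library 3). ACTA2 overlaps FAS and STAMBPL1 on the opposite strand. The library kit marked the strand, but whether the strand was used in the estimates is not given in the sources used here. ACTA2 held 0.739% to 0.899% of the summed FPKM of the 3 actins in rhPOSTN libraries, and 0.647% to 0.664% in PBS libraries.

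Among contractile genes, TPM4 (ENSG00000167460.14_4, chr19:16177831-16213815, plus strand, GRCh37) had the clearest separation of the groups. TPM4 encodes a tropomyosin, a coiled coil that lies along actin filaments and sets which other proteins bind them. It had 65.6, 57.9 and 49.0 FPKM in rhPOSTN libraries, against 73.5, 90.6 and 79.6 FPKM in PBS libraries, without overlap. The means were 57.5 ± 8.32 FPKM with rhPOSTN and 81.3 ± 8.67 FPKM with PBS (SD, n = 3 each), a ratio of 0.708. On the log2 scale this was -0.50 ± 0.15 (SE, adjusted p = 0.951 in limma), and it was -0.51 ± 0.15 without PBS library 3 (adjusted p = 0.489). It stayed between -0.59 and -0.39 under all alternatives tried, with limma adjusted p of 0.19 to 1.00.

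TPM3, another tropomyosin, also had its rhPOSTN libraries below its PBS libraries, at 32.4, 16.8 and 29.8 FPKM against 34.5, 33.7 and 43.6 FPKM. The gap between the nearest libraries was small beside the spread within the rhPOSTN group, and the log2 difference of -0.53 ± 0.26 missed the threshold (SE; limma adjusted p = 0.951). TPM1 and TPM2, named here after their values were seen, behaved otherwise. TPM1 had 37.8, 32.0 and 26.2 FPKM in rhPOSTN libraries, against 25.1, 26.0 and 60.7 FPKM in PBS libraries, and TPM2 had 70.8, 81.2 and 63.6 FPKM against 72.3, 66.0 and 169 FPKM. PBS library 3 held the highest value of both genes by a wide margin. COL1A1, a fibrillar collagen, was also highest in that library, at 324 FPKM. Of the 7 mesenchymal and pericyte markers found, PBS library 3 was the highest for 4 (COL1A1, COL1A2, CSPG4 and MCAM) and the lowest for 1 (PDGFRB). The 6 without COL1A1 summed to 257, 275 and 259 FPKM in PBS libraries 1 to 3, and VIM held most of that sum (190, 204 and 170 FPKM). With all libraries TPM1 and TPM2 differed by -0.11 ± 0.35 and -0.38 ± 0.36 on the log2 scale, and by 0.30 ± 0.15 and 0.05 ± 0.12 without PBS library 3 (SE).

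As a share of the summed FPKM of the 4 tropomyosin genes, TPM4 held 31.8%, 30.8% and 29.1% in rhPOSTN libraries and 35.8%, 41.9% and 22.6% in PBS libraries. TPM1 held 18.3%, 17.0% and 15.5% in rhPOSTN libraries and 12.2%, 12.001% and 17.2% in PBS libraries. The mix in PBS library 3 thus differed from that in PBS libraries 1 and 2, and the share of TPM4 did not separate the groups once it was counted. The summed level was 207, 188 and 169 FPKM in rhPOSTN libraries, against 205, 216 and 353 FPKM in PBS libraries. TPM2 carried most of the excess in PBS library 3.

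**Figure D3:**
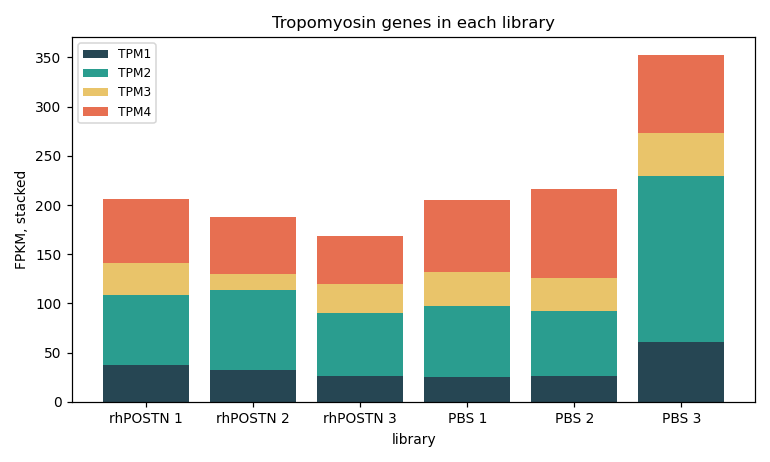
Stacked FPKM of TPM1, TPM2, TPM3 and TPM4 in each library, rhPOSTN libraries 1 to 3 on the left and PBS libraries 1 to 3 on the right. The sum was 169 to 207 FPKM in rhPOSTN libraries and reached 353 FPKM in PBS library 3, where TPM2 alone had 169 FPKM.

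The remaining contractile genes gave no separation. TAGLN (SM22, an actin-binding protein and a classical SRF target) had 124, 129 and 104 FPKM in rhPOSTN libraries, against 115, 115 and 199 FPKM in PBS libraries. It differed by -0.22 ± 0.24 on the log2 scale, and by 0.04 ± 0.11 when PBS library 3 was left out (SE), so its sign rested on that library. TAGLN overlaps PCSK7 on the opposite strand. TAGLN2, its paralogue, had 74.8, 83.5 and 77.5 FPKM in rhPOSTN libraries, against 88.4, 91.5 and 66.3 FPKM in PBS libraries. Without PBS library 3 all rhPOSTN values of TAGLN2 lay below both PBS values, and the log2 difference was -0.19 ± 0.08 in place of -0.05 ± 0.15 (SE; limma adjusted p = 0.520 in place of 0.966).

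CNN1, a calponin that restrains myosin on actin in smooth muscle, had 16.7, 17.5 and 11.6 FPKM in rhPOSTN libraries, against 12.2, 13.7 and 12.6 FPKM in PBS libraries. MYL9, the regulatory light chain of smooth muscle and non-muscle myosin, had 319, 378 and 353 FPKM in rhPOSTN libraries, against 342, 374 and 281 FPKM in PBS libraries. The groups overlapped for both, with log2 differences of 0.22 ± 0.17 and 0.08 ± 0.15 (SE; limma adjusted p = 0.951 and 0.953). The other calponins, CNN2 and CNN3, differed by 0.19 and 0.12 on the log2 scale (adjusted p = 0.951 in limma), and by 0.091 and -0.047 when PBS library 3 was left out, so that the sign of CNN3 rested on that library.

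CAP1 (ENSG00000131236.16_3, chr1:40505905-40538321, plus strand, GRCh37) showed the largest log2 difference of the 46 genes. It encodes cyclase-associated protein, which works with cofilin to take actin filaments apart and recharges the released monomers with ATP. CAP1 had 45.7, 42.0 and 44.1 FPKM in rhPOSTN libraries, against 81.5, 83.5 and 53.5 FPKM in PBS libraries. The 3 rhPOSTN values lay close together and below all PBS values, and PBS library 3 lay between them and the other PBS libraries. The means were 43.9 ± 1.82 FPKM with rhPOSTN and 72.9 ± 16.8 FPKM with PBS (SD, n = 3 each), a ratio of 0.603.

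With all 6 libraries CAP1 differed on the log2 scale by -0.69 ± 0.19 and missed the threshold (SE, adjusted p = 0.951 in limma). Without PBS library 3 it was -0.90 ± 0.07 and passed it (limma adjusted p = 0.0409), and with estimated library weights it was -0.88 (limma adjusted p = 0.00892). Over all alternatives it stayed between -0.90 and -0.58, with adjusted p of 0.00892 to 1.00. CAP1 overlaps PPT1 on the opposite strand, and 0% of its transcript sequence, in pieces of 100 bases, was found in a transcript of another gene of GENCODE 29. PBS library 3 also stood apart in its mitochondrial share and in its correlation with the other libraries, and the part of either in these calls was not tested.

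The other genes of monomer turnover overlapped between groups. CFL1, cofilin, which severs aged filaments, had 49.8, 60.5 and 50.3 FPKM in rhPOSTN libraries, against 52.4, 70.4 and 64.5 FPKM in PBS libraries (log2 difference -0.21 ± 0.15, SE). PFN1, profilin, which feeds ATP-actin to growing filament ends, had 151, 297 and 158 FPKM in rhPOSTN libraries, against 189, 161 and 232 FPKM in PBS libraries. A single library, rhPOSTN library 2, set the mean of PFN1, and it differed by 0.00 ± 0.29 on the log2 scale (SE, adjusted p = 1.00 in limma). CFL1 and PFN1 overlap MUS81 and ENO3 on the opposite strand.

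The Arp2/3 complex nucleates branched actin networks, with ACTR2 and ACTR3 forming the template for a new filament and the ARPC subunits holding them on the mother filament. ACTR2 (ENSG00000138071.13_3, chr2:65454887-65498387, plus strand, GRCh37) had 81.2, 68.8 and 67.5 FPKM in rhPOSTN libraries, against 118, 125 and 74.8 FPKM in PBS libraries. PBS libraries 1 and 2 lay above all rhPOSTN libraries, while PBS library 3 lay among them. The means were 72.5 ± 7.54 FPKM with rhPOSTN and 106 ± 27.4 FPKM with PBS (SD, n = 3 each), a ratio of 0.682. On the log2 scale ACTR2 differed by -0.51 ± 0.21 (SE, adjusted p = 0.951 in limma), and leaving out PBS library 3 gave -0.75 ± 0.10 (adjusted p = 0.165). With library weights it was -0.73 and passed the threshold (limma adjusted p = 0.0366).

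ACTR3, the partner of ACTR2, had 30.8, 29.5 and 31.3 FPKM in rhPOSTN libraries, against 33.8, 33.7 and 39.98 FPKM in PBS libraries. All rhPOSTN values of ACTR3 lay below all PBS values, by -0.22 ± 0.11 on the log2 scale (SE, adjusted p = 0.951 in limma). The ARPC subunits did not separate the groups. ARPC2 had 39.8, 35.4 and 36.5 FPKM in rhPOSTN libraries, against 39.6, 39.2 and 26.5 FPKM in PBS libraries, and ARPC3 had 84.1, 98.6 and 90.4 FPKM against 91.3, 96.5 and 107 FPKM. They differed by 0.10 ± 0.18 and -0.11 ± 0.12 on the log2 scale, and by -0.08 ± 0.08 and -0.05 ± 0.09 when PBS library 3 was left out (SE). Across the 8 subunits, 2 lay above 0 and 6 below, with a median of -0.10. PBS library 3 was the highest of the 6 libraries for 6 of them, and without it 4 lay above 0 and 4 below, with a median of -0.01. Summed over the complex, the level was 364, 378 and 355 FPKM in rhPOSTN libraries and 413, 422 and 408 FPKM in PBS libraries, without overlap. ACTR2 made up the largest part of the gap between the means. In PBS library 3, however, ACTR2 lay among its rhPOSTN values, and the 6 subunits highest in that library did not include it. ARPC1A and ARPC1B share 75% and 41.2% of their transcript pieces with the readthrough gene AC004922.1, and ARPC4 shares 15.9% with ARPC4-TTLL3, so that their levels depend on how fragments were divided.

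The 11 crosslinkers and adhesion proteins showed small differences, from -0.23 to 0.18 on the log2 scale, with 6 above and 5 below 0 and a median of 0.05. Without PBS library 3 there were 5 above and 6 below, and the median was -0.018. FLNA, filamin A, which crosslinks filaments into networks and binds integrin tails, had 173, 123 and 121 FPKM in rhPOSTN libraries, against 162, 142 and 169.6 FPKM in PBS libraries. PXN, paxillin, an adaptor of focal adhesions, had 17.1, 24.0 and 19.2 FPKM in rhPOSTN libraries, against 24.5, 24.7 and 21.5 FPKM in PBS libraries. PTK2, focal adhesion kinase, had 12.8, 12.03 and 11.7 FPKM in rhPOSTN libraries, against 11.4, 10.9 and 9.77 FPKM in PBS libraries. PTK2 thus was slightly higher in every rhPOSTN library, whereas FLNA and PXN overlapped between groups. Their log2 differences were 0.18 ± 0.11 for PTK2, -0.20 ± 0.17 for FLNA and -0.23 ± 0.15 for PXN (SE; limma adjusted p = 0.951 for each). The remaining 8, namely ACTN1, ACTN4, VCL, TLN1, ZYX, VASP, FHL2 and ILK, lay between -0.16 and 0.15 with all libraries, with limma adjusted p of 0.951 to 0.983. The summed level of all 11 was 504, 437 and 463 FPKM in rhPOSTN libraries and 500.3, 476 and 473 FPKM in PBS libraries.

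Among the transcription regulators, SRF had 19.1, 20.6 and 18.8 FPKM in rhPOSTN libraries, against 19.9, 19.6 and 22.9 FPKM in PBS libraries. WWTR1 had 16.1, 16.3 and 15.51 FPKM in rhPOSTN libraries, against 15.4, 15.49 and 13.2 FPKM in PBS libraries, so that its groups only just failed to overlap. YAP1 had 37.6, 32.3 and 38.3 FPKM in rhPOSTN libraries, against 35.9, 34.2 and 12.3 FPKM in PBS libraries. PBS library 3 was the lowest for both coactivators, and for YAP1 by a wide margin. YAP1 differed by 0.51 ± 0.39 on the log2 scale, and by 0.04 ± 0.10 when PBS library 3 was left out. For WWTR1 the same values were 0.12 ± 0.11 and 0.04 ± 0.07 (SE, adjusted p = 0.951 for both genes in limma on all libraries). TEAD1, named here after its values were seen, is a DNA-binding partner of YAP1 and had 5.82, 22.6 and 25.6 FPKM in rhPOSTN libraries, against 23.7, 24.6 and 3.46 FPKM in PBS libraries. A single library of each group was thus low in TEAD1, and its log2 difference of 0.20 ± 0.82 carried the largest error of the list (SE).

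None of the 7 YAP target genes passed the test, and the ratio of group means was within 15% of 1 for 5 of them. CYR61 (ENSG00000142871.16_3, chr1:86046444-86049645, plus strand, GRCh37), a matricellular ligand of integrins, had 213, 226 and 229 FPKM in rhPOSTN libraries, against 241, 242 and 255 FPKM in PBS libraries. The groups did not overlap, but the difference was small, with means of 223 ± 8.43 and 246 ± 7.61 FPKM for rhPOSTN and PBS (SD, n = 3 each) and a ratio of 0.906. On the log2 scale CYR61 differed by -0.14 ± 0.10 (SE, adjusted p = 0.951 in limma), and by -0.12 ± 0.07 when PBS library 3 was left out (adjusted p = 0.623).

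CTGF (chr6:132269316-132272513, minus strand, GRCh37), a matricellular protein of the same family, had 44.3, 48.5 and 47.2 FPKM in rhPOSTN libraries, against 38.9, 46.5 and 32.4 FPKM in PBS libraries. Its log2 difference was 0.26 ± 0.15, of the opposite sign to that of CYR61, and the groups overlapped (SE; limma adjusted p = 0.951). Leaving out PBS library 3 gave 0.13 ± 0.10. ANKRD1, a nuclear ankyrin repeat protein induced by stretch in muscle, had 120.4, 119 and 119 FPKM in rhPOSTN libraries, against 120.3, 113 and 121 FPKM in PBS libraries (log2 difference 0.02 ± 0.10, SE). These 3 widely used YAP reporters thus lay on both sides of 0, and none passed the test. The promoters of CTGF and ANKRD1 shown above hold TEAD motifs, and that of CYR61 was not analysed here.

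AXL, a receptor tyrosine kinase, had 91.2, 90.0 and 86.1 FPKM in rhPOSTN libraries, against 90.3, 94.3 and 121 FPKM in PBS libraries. It differed by -0.18 ± 0.14 on the log2 scale, and by -0.05 ± 0.07 when PBS library 3 was left out (SE). AJUBA (ENSG00000129474.15_4, chr14:23440383-23451851, minus strand, GRCh37), a LIM protein that binds the Hippo kinases LATS1 and LATS2, had 18.4, 22.2 and 40.4 FPKM in rhPOSTN libraries, against 16.4, 17.0 and 33.5 FPKM in PBS libraries. The library numbered 3 was the highest in each group, and AJUBA differed by 0.26 ± 0.37 on the log2 scale (SE, adjusted p = 0.951 in limma), or by 0.58 ± 0.32 when PBS library 3 was left out (adjusted p = 0.591). AJUBA overlaps AL132780.3 on the same strand, for which 17.2, 18.03 and 15.03 FPKM were listed in rhPOSTN libraries and 0 in each PBS library. In pieces of 100 bases, 0% of the transcript sequence of AJUBA was found in a transcript of another gene of GENCODE 29. How fragments were divided between AJUBA and AL132780.3 was not tested. AMOTL2 and LATS2, which restrain YAP, differed by -0.07 and 0.12 on the log2 scale, and by -0.11 and -0.075 when PBS library 3 was left out, so that the sign of LATS2 rested on that library. Over the 7 target genes the summed level was 544, 559 and 557 FPKM in rhPOSTN libraries and 558, 562 and 605 FPKM in PBS libraries.

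**Figure D4:**
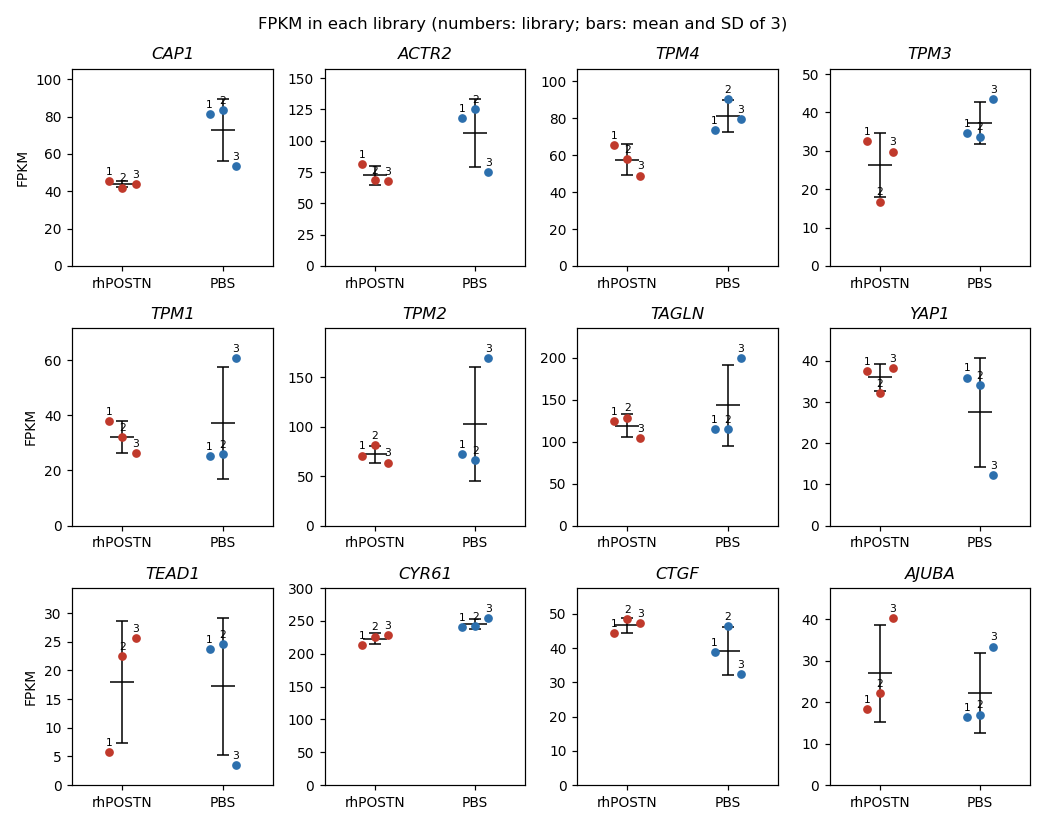
FPKM of 12 genes in each library (points, with the library number), rhPOSTN on the left and PBS on the right of each panel, with the mean and SD of 3 libraries. CAP1, TPM4, TPM3 and CYR61 had no overlap between groups, whereas the PBS means of TPM1, TPM2, TAGLN and YAP1 were moved by library 3.

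The wider pathway was described with a further list of 107 genes, of which 100 were found and 95 tested. It covered other actin regulators and myosins, other adhesion proteins, Hippo kinases and TEAD factors, other YAP targets, and MRTF coactivators with other SRF targets. In limma 0 of 95 passed the adjusted threshold. At an unadjusted p under 0.05 TAOK3 was higher (1.05%, against 2.45% of all tested genes) and MSN and IGFBP3 were lower (2.11%, against 0.765%), and without PBS library 3 there were 4 higher (against 7.07%) and 4 lower (against 2.48%). The median log2 difference of the 95 was 0.04, with 58 above 0 (61.1%, against 63.5%) and 37 below.

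MSN, moesin, which links actin to the plasma membrane, had 103, 79.7 and 89.4 FPKM in rhPOSTN libraries, against 129.6, 115 and 149 FPKM in PBS libraries. The groups did not overlap, and MSN differed by -0.53 ± 0.15 on the log2 scale (SE, adjusted p = 0.951 in limma), or by -0.44 ± 0.12 when PBS library 3 was left out (adjusted p = 0.468). IGFBP3, an IGF-binding protein and YAP target, had 4.21, 2.76 and 3.27 FPKM in rhPOSTN libraries, against 5.57, 4.81 and 5.44 FPKM in PBS libraries. TAOK3, a kinase upstream of the Hippo kinases, had 4.74, 4.12 and 4.72 FPKM in rhPOSTN libraries, against 3.73, 3.06 and 3.07 FPKM in PBS libraries. Both separated the groups, with log2 differences of -0.52 ± 0.15 for IGFBP3 and 0.37 ± 0.12 for TAOK3, and both missed the adjusted threshold (SE; limma adjusted p = 0.951 for each).

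Summed over all 46 genes, the cytoskeletal list held 1.77%, 1.80% and 1.69% of the summed FPKM in rhPOSTN libraries 1 to 3 and 1.84%, 1.82% and 1.83% in PBS libraries 1 to 3. The shares did not overlap and differed by little. Between libraries of a group, the spread of single genes was modest for most. The median coefficient of variation over the 46 genes was 8.96% in rhPOSTN libraries and 14.4% in PBS libraries, and in rhPOSTN libraries it was highest for TEAD1 (59.2%), AJUBA (43.6%) and PFN1 (40.8%).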

How the data were processed

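RNA-seq of HMC3 cells treated with rhPOSTN or PBS was analysed (3 libraries per group, grouped by the treatment label). According to the methods and labels, the authors selected polyadenylated RNA (rRNA removal is named as another option), prepared stranded libraries, trimmed reads with Cutadapt, aligned them with HISAT2 and estimated abundance with StringTie and Ballgown. The processing notes name GRCh37. For the tools, versions were not given in the sources used here. Each deposited value is the FPKM of a gene in a library, although the rhPOSTN table names no unit. Read counts cannot be had from FPKM, so the depth of each library, and with it any counting interval, is unknown. Of the columns holding per-sample values, 0 stayed unused.

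Values were analysed as log2(FPKM + 1), which understates changes of low genes. The test took in genes whose mean reached 1 FPKM in either group (10982 genes, all 46 members included). It used limma 3.58.1 in R 4.3.3 without covariates and with a mean-variance trend, adjusting p-values by the Benjamini-Hochberg method over all tested genes, at 0.05. The procedure was tested on simulated data, in which no library stood apart as PBS library 3 did. Alternatives were another pseudocount, filter, scaling, trend or robust setting, library weights, the library number as a block, and leaving out each library. Transcripts were compared in pieces of 100 bases of GENCODE 29. The members, lists and tests were chosen with earlier results of these data known. A marker and a further group of pathway genes are not reported here, and their lists were counted without them. Per-library values are given for members with an unadjusted p under 0.05 (with all libraries or without PBS library 3), for those highest in level or with the largest difference in each role, for those without overlap, and for CYR61, CTGF, ANKRD1, ACTA2 and TAGLN. Those of CFL1, TPM1, TPM2 and TEAD1 are given outside these rules.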

Additional observations from a re-analysis of the deposited data

How the results depend on the processing

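PBS library 3 limited most statements, and the 3 libraries per group and the unknown depth set the errors. The count of all genes passing the adjusted threshold was 2. It was 1 with a pseudocount of 0.1, 1 with a filter at 5 FPKM, 1 with the library number as a replicate block, 37 with library weights (which gave PBS libraries 1 and 3 weights of 5.68 and 0.0838), and 1 to 11 when each library was left out. Of the 46 members 0 passed, 2 with library weights (CAP1 and ACTR2) and 0 to 1 when each library was left out (CAP1, without PBS library 3). Members at an unadjusted p under 0.05 numbered 2. With library weights they numbered 9 (ACTA2, CTGF and AJUBA higher, 6 lower), where 1280 of all tested genes were higher and 505 lower. They numbered 2 to 4 with each library left out. Without rhPOSTN library 1 there were 4, all lower, where 159 of all tested genes were higher and 77 lower. Without PBS library 3 there were also 4, all lower, where 776 of all tested genes were higher and 272 lower. The replicate block left 0 members past the adjusted threshold and 3 lower at an unadjusted p under 0.05 (CAP1, ACTR2 and TPM4). At that unadjusted p, 127 of all tested genes were then higher and 54 lower. Deviations from the group means correlated at -0.044, -0.19 and -0.42 for libraries with the same number. For libraries with different numbers they correlated at -0.27 to 0.38. With 3 libraries per group and PBS library 3 apart, these values cannot show whether the numbers pair the samples. The median log2 difference of the members was -0.03, and it was -0.11 with scaling by the median of ratios, which placed all genes at -0.0089, and -0.077 to -0.0095 with each library left out.

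Among members with per-library values given by rule, or named after their values were seen, signs turned with scaling to the same sum for ACTB (0.0087), with the median of ratios for MYL9 (-0.00042), PFN1 (-0.082) and ANKRD1 (-0.065), with a pseudocount of 0.1 for PFN1 (-0.00012), and with library weights for TAGLN (0.00028), TPM1 (0.26), ARPC2 (-0.083) and TEAD1 (-0.49). With each library left out, log2 differences ran from -0.076 to 0.053 for ACTB, -0.35 to 0.041 for TAGLN, -0.19 to 0.036 for TAGLN2, -0.033 to 0.17 for MYL9, -0.32 to 0.30 for TPM1, -0.62 to 0.049 for TPM2, -0.31 to 0.17 for PFN1, -0.082 to 0.20 for ARPC2, -0.63 to 0.83 for TEAD1, -0.013 to 0.033 for ANKRD1 and -0.063 to 0.58 for AJUBA. The cause was not tested. Of the other members, 15 also turned under at least 1 alternative, with values between -0.30 and 0.32 (CNN2, CNN3, ARPC1A, ARPC1B, ARPC4, ARPC5, ACTN1, ACTN4, VCL, ZYX, VASP, FHL2, ILK, AMOTL2 and LATS2). Library weights turned 13 of all 46 signs and leaving out PBS library 3 turned 14. In all, 20 of the 46 kept their sign under every alternative, CAP1, ACTR2, TPM4 and CYR61 among these.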

Other observations

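The wider list had 4 of 95 genes higher at a limma unadjusted p under 0.05 without PBS library 3 (4.21%, against 7.07%). Another 4 were lower (4.21%, against 2.48% of all tested genes). F3, GSN, TEAD3, JUNB and NT5E passed only without that library, and the first 3 are described here after their values were seen. JUNB and NT5E differed by 0.14 ± 0.16 and -0.08 ± 0.15 on the log2 scale, and by 0.30 ± 0.09 and -0.22 ± 0.08 when PBS library 3 was left out (SE). F3, tissue factor, a starter of blood clotting and a YAP target, had 54.6, 55.8 and 61.8 FPKM in rhPOSTN libraries, against 74.5, 74.1 and 55.6 FPKM in PBS libraries. F3 differed by -0.23 ± 0.15 on the log2 scale (SE, adjusted p = 0.951 in limma), and by -0.37 ± 0.08 when PBS library 3 was left out (adjusted p = 0.421). GSN, gelsolin, which severs actin filaments, had 4.09, 4.81 and 4.13 FPKM in rhPOSTN libraries, against 3.08, 3.30 and 5.33 FPKM in PBS libraries. GSN differed by 0.15 ± 0.19 on the log2 scale, and by 0.35 ± 0.10 when PBS library 3 was left out (SE, adjusted p = 0.951 and 0.468 in limma). TEAD3, a DNA-binding partner of YAP1, had 20.7, 20.97 and 21.1 FPKM in rhPOSTN libraries, against 18.9, 17.4 and 17.4 FPKM in PBS libraries, without overlap also when all libraries were counted. Its log2 difference was 0.22 ± 0.10 (SE; limma adjusted p = 0.951).

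DES, desmin, the intermediate filament protein of muscle and 1 of the 5 smooth muscle markers found, had 1.45, 1.07 and 1.24 FPKM in rhPOSTN libraries, against 0.635, 0.636 and 0.909 FPKM in PBS libraries. The groups did not overlap at this low level (log2 difference 0.38 ± 0.12, SE; limma adjusted p = 0.951). Of the 5 markers, 3 lay above 0 with all libraries and 2 below (SMTN and MYOCD). The summed smooth muscle markers were 18.5 to 20.0 FPKM in rhPOSTN libraries and 19.0 to 19.8 FPKM in PBS libraries. COL1A1, a fibrillar collagen, had 135, 118 and 99.9 FPKM in rhPOSTN libraries, against 108, 98.3 and 324 FPKM in PBS libraries, where library 3 was also the highest for TAGLN, TPM1 and TPM2.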
